A study of Mus musculus with 8 samples.

Results

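The control synaptic translatome of cortical interneurons at postnatal day 15 was described across genes in 4 of the 8 samples of the series. These 4 libraries, labelled control replicates 1, 3, 4 and 5, were taken by their label and genotype, and the mutant libraries were not used here, so no comparison between genotypes was made. The mice were Lhx6-Cre;ErbB4+/+;Rpl22HA/HA: they carried a Cre driver under Lhx6, both normal copies of the neuregulin receptor gene ErbB4, and 2 copies of an Rpl22 allele that gives the ribosomal protein an HA tag after recombination. The driver recombines in cells of the medial ganglionic eminence and preoptic area that go on to form, for the most part, the parvalbumin (PV) and somatostatin (SST) interneurons of the cortex. Cortical synaptosomes, pinched-off synaptic terminals with attached postsynaptic membrane, were prepared from animals of both sexes, ribosomes were pulled down with an antibody to the tag, and the bound RNA was sequenced after an amplification made for very small inputs. A figure legend of the study mentions 2 sequencing batches at this age. The labels do not say which library belongs to which, nor how many animals each library holds, so no value within a batch is given. RNA of the starting fraction or of mice without Cre was not analysed here, so the values below are levels and not enrichments over such a fraction.

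In the adult cortex, PV basket cells place fast inhibitory synapses around the cell body and SST cells place them on dendrites, and both use GABA as transmitter. Ribosomes and mRNA are found in axons and dendrites far from the cell body, and proteins made there can change single synapses. In the first postnatal weeks these synapses are still being built. The tagged ribosomes were pulled down to view the mRNA that interneurons hold near them. Transcripts of excitatory neurons, glia and vessels were also present, as given below.

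The deposited values were reads on constitutive regions of each gene divided by 1 size factor per library, called normalized counts here. The recovered totals were 52785970 reads in replicate 1, 80226984 in replicate 3, 66499909 in replicate 4 and 51010687 in replicate 5. In the deepest of the 4, replicate 3, 31141 regions had a value above 0, against 28247 in replicate 1, 32709 in replicate 4 and 32714 in replicate 5. Of 19743 protein-coding genes matched to an annotated transcript, 13402 (67.9%) had at least 10 normalized counts in each of the 4 libraries and are called detected below. Where genes are compared with each other, the normalized count was divided by the length of the longest annotated transcript and is given per kilobase (kb). Reads were counted on constitutive regions only, whose lengths were not available, so a level per kb is not a read density. How far the order of genes and lists depends on the length of those regions was not tested. The level of a gene list is the median over its members of log2(normalized count per kb + 0.1), and for all detected protein-coding genes it was 8.52 ± 0.04 (SD, n = 4).

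Control replicate 1 stood apart from the rest. Pearson's r of log2 values across 18977 genes, which are not independent replicates, was 0.85 to 0.87 between replicate 1 and the others, and 0.92 for replicates 3 and 4, 0.90 for 3 and 5 and 0.96 for 4 and 5. The first component of the variation between the libraries held 58.9% of it and set replicate 1 against the other libraries, and the second, with 30.0%, set replicate 3 against them. Transcript length moved with these differences. The bins of length and GC held protein-coding genes with a mean of at least 100 normalized counts. Genes whose longest transcript was under 1 kb deviated from the 4-library mean by 0.74 in replicate 1, 0.57 in replicate 3, -0.68 in replicate 4 and -0.61 in replicate 5 (median log2), while genes of over 8 kb deviated by -0.36 in replicate 1, -0.08 in replicate 3, 0.26 in replicate 4 and 0.33 in replicate 5. Short transcripts were thus high in replicates 1 and 3 and low in replicates 4 and 5. GC content also moved with them among genes of over 4 kb, which deviated by -0.06 in replicate 1, 0.20 in replicate 3, 0.04 in replicate 4 and -0.06 in replicate 5 where GC was under 40% and by -0.51 in replicate 1, -0.12 in replicate 3, 0.35 in replicate 4 and 0.39 in replicate 5 where it was over 56%. Over genes of all lengths the trend was weaker, from 0.09 in replicate 1, 0.18 in replicate 3, -0.04 in replicate 4 and -0.13 in replicate 5 to 0.00 in replicate 1, 0.01 in replicate 3, 0.04 in replicate 4 and 0.06 in replicate 5 in the same 2 bins. The list values below are not adjusted for GC. The neuropeptide, active zone, cytosolic ribosomal and nuclear OXPHOS lists are therefore also given relative to genes of like length. The highest library was 2 or more times the lowest for 7013 of the 13402 detected protein-coding genes (52.3%). With 4 libraries of 1 group, the smallest p of a two-sided exact sign-flip test is 0.13 after rounding, above 0.05, so differences between lists are given with their spread and no p.

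**Figure D1:**
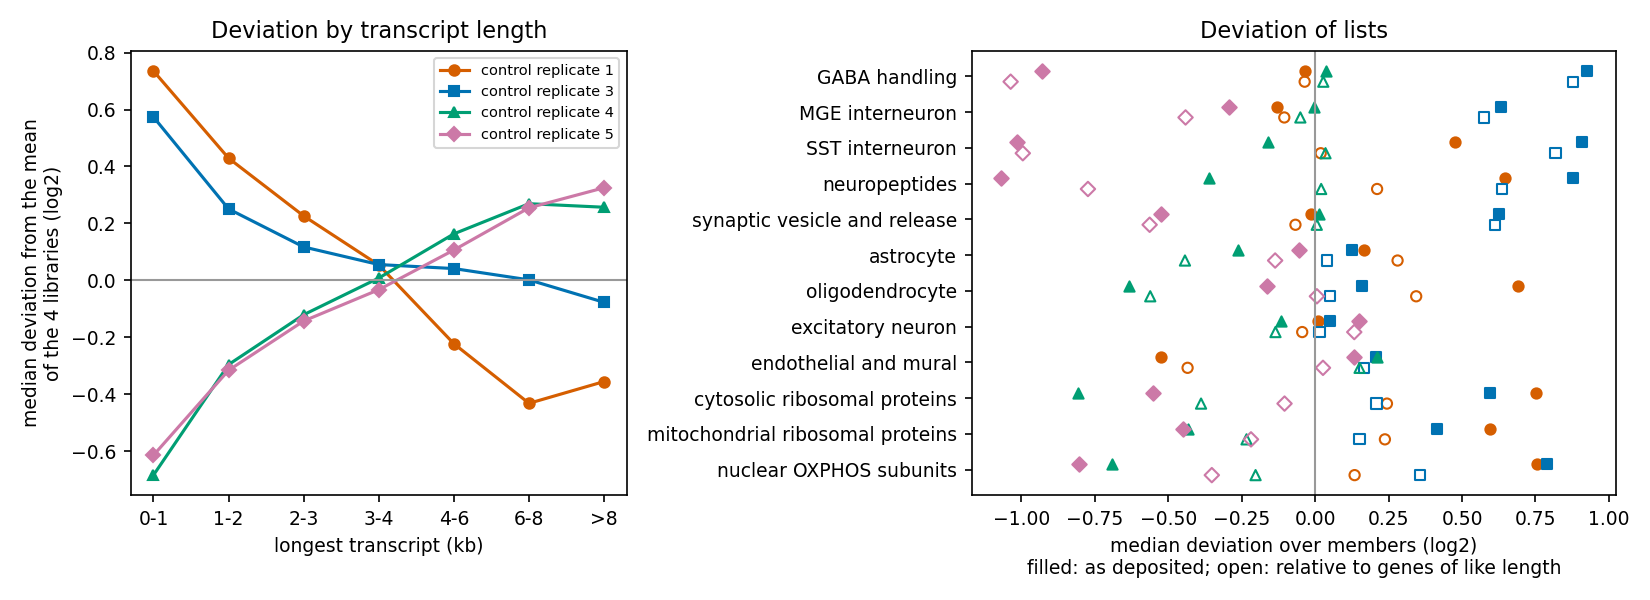
Left, the median deviation of each library from the mean of the 4 (log2, y axis), with genes binned by longest transcript (kb, x axis). The binned genes are protein-coding genes with a mean of at least 100 normalized counts. Right, the same deviation as a median over the members of 12 lists (x axis), as deposited (filled) and relative to genes of like length (open); the open points of nuclear OXPHOS subunits lie closer to 0, while those of the GABA handling list keep nearly the same values.

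By mean normalized count, regions of the mitochondrial chromosome and Rn45s, the ribosomal RNA precursor, were among the highest. Rn45s had 143275 normalized counts in replicate 1, 530216 in replicate 3, 1123965 in replicate 4 and 1502598 in replicate 5, a mean of 825013 ± 605576 (SD, n = 4), and made up 0.199% in replicate 1, 0.644% in replicate 3, 1.69% in replicate 4 and 2.38% in replicate 5 of all normalized counts. It had a 10.5-fold range with replicate 1 lowest.

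The first 20 by mean normalized count also held genes of several secreted and membrane proteins. Cpe, the carboxypeptidase that trims neuropeptides, had 363423 ± 181351, App, the amyloid precursor, 324904 ± 125085, and Aplp1, its relative, 172339.8 ± 55943. The chemokine Cx3cl1 had 275046 ± 82922, Bsg (basigin) 262442 ± 114068, Sparcl1 (hevin, a secreted synaptogenic protein) 252301 ± 106749.8 and the adhesion protein Clstn1 207204 ± 70430.1. The spectrin gene Sptbn1 had 297184 ± 97292 and the calcium pump gene Atp2a2 195369.9 ± 94697. The lysosomal genes Psap and Ctsb had 207498 ± 132801 and 188855 ± 88941, and a region that joins Syt11 and 1500004A13Rik had 178405 ± 58204. The 20 highest regions, which include unnamed ones, held 14.1% in replicate 1, 14.5% in replicate 3, 12.2% in replicate 4 and 13.8% in replicate 5 of all normalized counts. Per kb, Sst at 236417 ± 202859 normalized counts, Bsg at 171980.2 ± 74749 and Cpe at 171669 ± 85664 were among the highest protein-coding genes and overlapped within their spread. Without replicate 3 the mean of Sst fell from 170457 to 104612 normalized counts.

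The genes that mark the targeted cells were present in each library, at very different levels. Sst (chromosome 16, 23889581 to 23890845) was far above the others, and Lhx6, Pvalb, Gad1 and Erbb4 were lower. Sst, the peptide of SST cells, had 186458 normalized counts in replicate 1, 367992 in replicate 3, 96107 in replicate 4 and 31270.0 in replicate 5. Pvalb, the calcium buffer of PV cells (chromosome 15, 78191114 to 78206400), had 3219 normalized counts in replicate 1, 5896 in replicate 3, 1674 in replicate 4 and 729.7 in replicate 5. Both were highest in replicate 3 and lowest in replicate 5, 11.8-fold apart for Sst and 8.08-fold for Pvalb. Without replicate 3 the mean of Pvalb was 1874, against 2879.7. Gad1, which makes GABA (chromosome 2, 70562129 to 70602012), had 5482 normalized counts in replicate 1, 8135 in replicate 3, 4342 in replicate 4 and 1720.4 in replicate 5. Lhx6, the transcription factor whose promoter drives Cre (chromosome 2, 36081953 to 36105409), had 1130.2 normalized counts in replicate 1, 1781 in replicate 3, 1280.1 in replicate 4 and 701 in replicate 5. Erbb4 (chromosome 1, 68032186 to 69108060) had 1640.1 normalized counts in replicate 1, 5377 in replicate 3, 4306 in replicate 4 and 3034 in replicate 5. For Gad1 and Lhx6 the order of the libraries was that of Sst and Pvalb at its ends, while Erbb4 was lowest in replicate 1. Per kb the 5 markers ranked Sst at 236417 ± 202859, Pvalb at 2948 ± 2311, Gad1 at 1366 ± 739, Lhx6 at 351 ± 128 and Erbb4 at 298 ± 134 normalized counts. Without division by length the order after Sst was Gad1 at 4919.7 ± 2659.7, Erbb4 at 3589 ± 1614, Pvalb at 2879.7 ± 2257 and Lhx6 at 1223 ± 445, and Gad1 exceeded Pvalb in 4 of 4 libraries. Per kb, Lhx6 and Erbb4 did not differ beyond their spread. Rpl22, the gene that carries the tag (chromosome 4, 152324436 to 152334082), had 1358 normalized counts in replicate 1, 606 in replicate 3, 542 in replicate 4 and 806 in replicate 5, with replicate 1 highest.

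Transcripts of GABA handling were well above those of excitatory neurons, as were the PV and SST lists given below, while a list of lineage genes was not. The GABA handling list, with Gad1 and Gad2 among its 6 members, had a level of 11.50 ± 0.47 (log2 per kb, SD, n = 4), and the excitatory neuron list, with 12 of 12 measured members detected, 8.33 ± 0.23. The difference was 2.78 in replicate 1, 3.78 in replicate 3, 3.48 in replicate 4 and 2.63 in replicate 5, a mean of 3.17 ± 0.55 or 8.99-fold, and above 0 in 4 of 4 libraries. Without division by length it was 3.87. The list of genes that specify or mark the medial ganglionic eminence (MGE) lineage had 7.69 in replicate 1, 8.80 in replicate 3, 7.92 in replicate 4 and 7.42 in replicate 5, and lay below the excitatory list in replicates 1, 4 and 5. In a bulk pulldown like this one, fewer cells of a type and less RNA per cell cannot be told apart. Slc32a1, the vesicular GABA transporter, stood at 7927 ± 4752 normalized counts per kb and Slc38a1, a glutamine transporter, at 3772 ± 1787. Gad1 exceeded Gad2, at 1059 ± 555, in each of the 4 libraries, by 0.32 ± 0.35 (log2) per kb, which is less than 1 SD. Without division by length the order turned, with a mean of 6083 ± 3189 normalized counts for Gad2. Abat, a member that breaks down GABA, is also expressed by astrocytes.

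Summed over its 6 members, the GABA handling list held 168946 normalized counts in replicate 1, 383932 in replicate 3, 230517 in replicate 4 and 114646 in replicate 5. Each of its 6 members differed by at least 2-fold between libraries, as 52.3% of detected protein-coding genes did, and 5 of the 6 were highest in replicate 3 and lowest in replicate 5, an order chosen after the values were seen and found in 2018 of 13402 detected protein-coding genes (15.1%). The excitatory list showed this order in 0 of its 12 members.

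Excitatory transcripts were not absent. The excitatory list summed to 155282 normalized counts in replicate 1, 176575 in replicate 3, 141174 in replicate 4 and 172239 in replicate 5. Its most abundant gene, Slc17a7, the vesicular glutamate transporter of cortical excitatory neurons, had 92440.2 normalized counts in replicate 1, 121394 in replicate 3, 100411 in replicate 4 and 122229 in replicate 5. Per kb it had 35428 ± 4876 normalized counts. Nrgn, a calmodulin-binding postsynaptic protein, stood at 16485 ± 8095 and Camk2a, the kinase of excitatory synapses, at 3784 ± 573 per kb, while the layer 4 factor Rorb was lowest at 43.8 ± 13.6. None of its measured markers was at 0 in any of the 4 libraries, and their part in the values of shared synaptic genes was not tested.

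Within the interneuron lists, peptides and other genes of mature PV and SST cells stood at higher levels than the transcription factors of their lineage. The PV list, with 11 of 11 measured members detected, had a level of 10.44 ± 0.68 and the SST list, with 10 of 10, 10.56 ± 0.50, against 7.96 ± 0.60 for the MGE list. The PV and SST lists were above the excitatory list in 4 of 4 libraries. Tac1, the precursor of substance P, led the PV list at 11953 ± 9610.5 normalized counts per kb, followed by Lynx1, a modulator of nicotinic receptors, at 5441 ± 1284, and the lowest detected member was Mybpc1 at 169 ± 96.9. In the SST list Npy (neuropeptide Y) followed Sst at 67810.4 ± 55793, then Crhbp, which binds corticotropin-releasing hormone, at 8755 ± 5504, and Nos1, neuronal nitric oxide synthase, was lowest at 64.4 ± 42.4. Of the MGE list the transcription factor gene Satb1 stood at 786 ± 93.9, and Dlx6 was the lowest detected at 44.1 ± 39.1. Nkx2-1, the factor of MGE progenitors, was at 0 in 3 of the 4 libraries and is the 1 member of 13 not detected. Satb1 hardly varied between libraries (SD of log2 0.16).

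Interneurons of the caudal ganglionic eminence (CGE), a lineage without Lhx6, also had transcripts here. Their list had 11 of 12 members detected and a level of 7.94 ± 0.44. The MGE list minus the CGE list came to -0.85 in replicate 1, 1.03 in replicate 3, -0.05 in replicate 4 and -0.07 in replicate 5, a mean of 0.02 ± 0.77, within the spread. It was 0.30 without replicate 1 and -0.32 without replicate 3. Other settings put the lists apart in either direction, by -0.66 for members with a mean of at least 10, -0.45 as a mean over members and 0.46 without division by length, so no order is given. Summed levels of the CGE list were 45664 normalized counts in replicate 1, 54025 in replicate 3, 29972 in replicate 4 and 26155 in replicate 5. Cck, a peptide also made by excitatory neurons, led at 10867 ± 7251 normalized counts per kb, followed by the membrane protein gene Lamp5 at 3044 ± 1697 and the cannabinoid receptor gene Cnr1 at 2016 ± 783. Lamp5 was highest in replicate 1. Sp8 was the lowest detected member at 13.9 ± 7.82, and Sncg, the 1 member not detected, was at 0 in replicates 1 and 5.

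Transcripts of glia and vessels were abundant. The list levels were 11.56 ± 0.53 for oligodendrocytes, 10.84 ± 0.57 for astrocytes, 10.87 ± 0.42 for microglia, 9.28 ± 0.16 for oligodendrocyte precursors and 11.74 ± 0.52 for endothelial and mural cells, and each member of the 5 lists was detected. The GABA handling list minus the astrocyte list was -0.37 in replicate 1, 1.40 in replicate 3, 1.13 in replicate 4 and 0.49 in replicate 5, a mean of 0.66 ± 0.79, which is within the spread. Without replicate 1 this difference was 1.00, and without division by length it was 1.16. The difference from the oligodendrocyte list was -0.99 in replicate 1, 0.67 in replicate 3, 0.49 in replicate 4 and -0.41 in replicate 5, a mean of -0.06 ± 0.78, and it was 0.25 without replicate 1 and 0.06 without replicate 5, so its sign rested on single libraries. Against microglia the mean was 0.63 ± 0.53, above 0 in 4 of 4 libraries, or 1.48 as a mean over members and 2.01 without division by length, and against endothelial and mural cells -0.24 ± 0.56, above 0 in 2 of 4. Per kb, the GABA handling list was thus above the excitatory list, as were the PV and SST lists, while the MGE list was above it in replicate 3 alone, and with all 4 libraries the GABA handling list did not differ from the astrocyte, oligodendrocyte and vascular lists beyond the spread.

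The oligodendrocyte list summed to 673772 normalized counts in replicate 1, 362807 in replicate 3, 229955 in replicate 4 and 324754 in replicate 5. Mbp, the myelin basic protein, had 535543 normalized counts in replicate 1, 268287 in replicate 3, 168511 in replicate 4 and 239104 in replicate 5, and replicate 1 was the highest. Mag, also of myelin, stood at 7496 ± 2512 normalized counts per kb, and Ermn was lowest at 158 ± 44.2. The astrocyte list summed to 257370.1 normalized counts in replicate 1, 203707 in replicate 3, 147388 in replicate 4 and 186029 in replicate 5, again with replicate 1 highest and replicate 4 lowest. Aldoc, the aldolase of astrocytes, led it at 31802 ± 11061 per kb, followed by the gap junction gene Gja1 at 5347 ± 1873 and the glutamate transporter gene Slc1a3 at 5239 ± 1053, with the water channel gene Aqp4 lowest at 423 ± 77.7. Gja1 and Slc1a3 did not differ beyond their spread.

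Microglial genes summed to 53208 normalized counts in replicate 1, 45661 in replicate 3, 26619.5 in replicate 4 and 31643 in replicate 5. C1qb and C1qc were level with each other at 3592 ± 1698 and 3527 ± 1241 normalized counts per kb, and Trem2 was lowest at 91.9 ± 28.0. Endothelial and mural genes summed to 198490.3 normalized counts in replicate 1, 325275 in replicate 3, 253454 in replicate 4 and 211789 in replicate 5. Cldn5, the tight junction protein of brain vessels, was highest at 49558 ± 21926 per kb, then the transporter gene Slco1a4 at 13483 ± 3942 and the receptor gene Flt1 at 6095 ± 1297, and Cdh5 was lowest at 553 ± 218. Oligodendrocyte precursor genes summed to 35183 normalized counts in replicate 1, 43166 in replicate 3, 33467 in replicate 4 and 40365 in replicate 5, with Olig1 at 6205 ± 1522, Gpr17 at 2056 ± 721, Lhfpl3 at 794 ± 437 and Cspg4 at 172 ± 85.3 per kb. No defining marker in these 5 lists was at 0 in a control library, and the part of such RNA in the levels of other genes was not tested.

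Neuropeptide genes had the highest mean level per kb of the lists examined, though not in replicate 5 taken alone. The list of 16, each detected, had a level of 13.11 ± 1.21, with 13.81 in replicate 1, 14.41 in replicate 3, 12.42 in replicate 4 and 11.80 in replicate 5. All 16 differed by at least 2-fold between libraries (52.3% of detected protein-coding genes did) and 8 of them (50%, against 15.1% of detected protein-coding genes) were highest in replicate 3 and lowest in replicate 5. Npy had 49999 normalized counts in replicate 1, 77396 in replicate 3, 18194 in replicate 4 and 7934 in replicate 5. Tac1 had 28924 normalized counts in replicate 1, 47784 in replicate 3, 12933 in replicate 4 and 4790.1 in replicate 5. Both were highest in replicate 3 and lowest in replicate 5, and without replicate 3 the mean of Npy was 25376, against 38381, and that of Tac1 15549, against 23608. Chgb, a granin that packs dense-core vesicles, had 198646 normalized counts in replicate 1, 169859 in replicate 3, 108615 in replicate 4 and 62004 in replicate 5. Sst and Npy varied more widely than Chgb, with an SD of log2 of 1.51 and 1.48 against 0.75. Cort, which encodes the somatostatin relative cortistatin, had an SD of log2 of 1.64 and a mean of 1617 normalized counts, or 767 without replicate 3, and Adcyap1 was the lowest member at 143 ± 40.1 normalized counts per kb. Their transcripts are short, and relative to genes of like length the list deviated from the 4-library mean by 0.21 in replicate 1, 0.64 in replicate 3, 0.02 in replicate 4 and -0.77 in replicate 5 (median log2), compared with 0.64 in replicate 1, 0.88 in replicate 3, -0.36 in replicate 4 and -1.07 in replicate 5 as deposited.

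Since 8 of these 16 genes shared an order of the libraries, their promoters were searched for the cAMP response element TGACGTCA, a palindrome that reads the same on both strands. The RefSeq windows (build GRCm38.p6) ran from 250 bases before to 50 bases after each gene start, and 13 of the 16 genes had one. Crh, Penk and Vgf had no entry. The motif lay in the windows of Scg2, Chgb and Sst, 3 of the 13 genes. Over all genes it was counted by window, in 588 of 32851 windows (1.79%) from 27025 genes. The first share counts genes and the second windows, so they are not a like comparison. Of these 3 genes only Sst had the order that prompted the search, since Chgb and Scg2 were highest in replicate 1. The search was chosen after the values were seen, and a match describes letters in a window, not a bound site or a cause. The stretch of 60 bases around each match is given 5′ to 3′ along the gene's strand with the motif in capitals, for Sst at chr16:23890859-23890918 (minus strand), Chgb at chr2:132781544-132781603 (plus strand) and Scg2 at chr1:79440061-79440120 (minus strand), where the motif starts 48, 72 and 68 bases before the start site.
Sst: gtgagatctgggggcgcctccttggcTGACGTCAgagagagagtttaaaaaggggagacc
Chgb: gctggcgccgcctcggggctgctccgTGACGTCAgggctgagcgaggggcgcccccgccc
Scg2: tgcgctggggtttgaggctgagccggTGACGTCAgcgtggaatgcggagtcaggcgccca
Beside these sequences, Sst had a mean of 170457 ± 146261 normalized counts, Chgb 134781 ± 61347 and Scg2 61464 ± 31318. Npy and Tac1, whose windows lack these letters, had an SD of log2 of 1.48 and 1.45, against 1.51 for Sst.

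**Figure D2:**
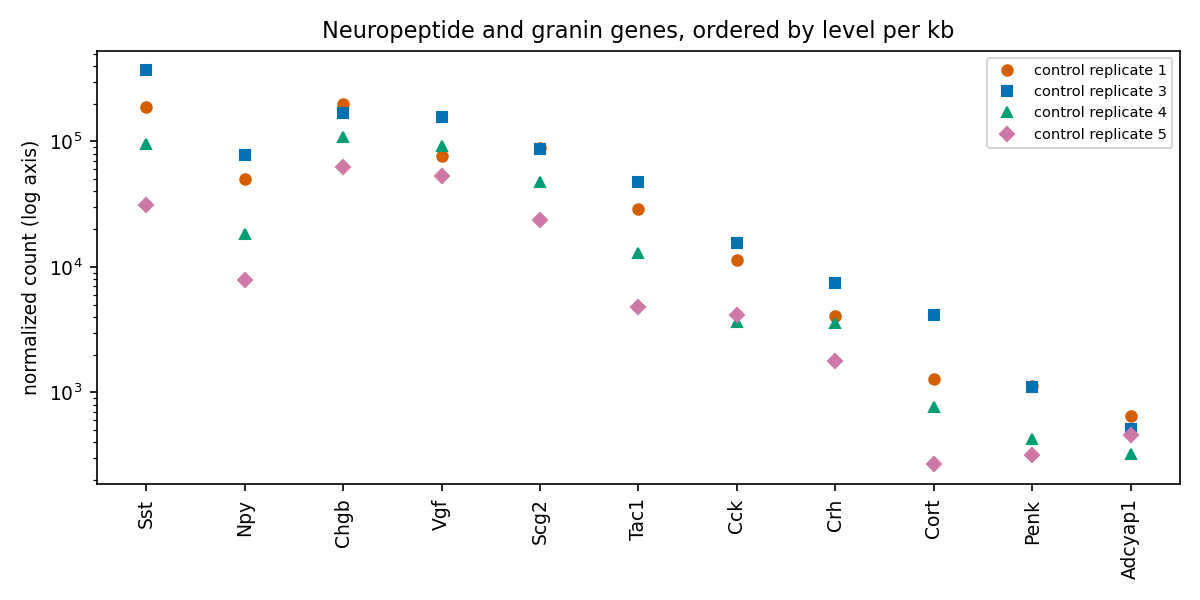
Normalized counts (y axis, log) of the neuropeptide and granin genes named in the text (x axis) in the 4 control libraries, 1 point per library. Replicate 5 is the lowest library for Sst and Npy, and the range is smaller for Adcyap1.

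Presynaptic vesicle genes exceeded postsynaptic scaffold genes. The vesicle and release list (25 of 25 measured members detected) had a level of 11.91 ± 0.45 and the postsynaptic scaffold list (18 of 18) 9.02 ± 0.32. The difference was 3.33 in replicate 1, 3.49 in replicate 3, 2.78 in replicate 4 and 1.96 in replicate 5, a mean of 2.89 ± 0.69 or 7.43-fold. It was above 0 in 4 of 4 libraries, and 2.11 without division by length. Syp, a membrane protein of synaptic vesicles, led at 39848 ± 20604 normalized counts per kb, with 123623 normalized counts in replicate 1, 186559 in replicate 3, 97209.8 in replicate 4 and 45762 in replicate 5. Sv2a, a vesicle glycoprotein, followed Slc17a7 at 28895 ± 14951, and Sv2c was lowest at 21.3 ± 9.98. Of the vesicle genes, 15 of 25 (60%, against 15.1%) were highest in replicate 3 and lowest in replicate 5, but Slc17a7 was not, with replicate 5 highest and replicate 1 lowest.

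The scaffold list was led by Dlgap3 at 3002 ± 741 normalized counts per kb, Dlgap1 at 1913 ± 163 and Dlg3 at 1195 ± 307, proteins that hold receptors at excitatory synapses. Dlg4, which encodes PSD-95, had 1317 normalized counts in replicate 1, 3286 in replicate 3, 1584 in replicate 4 and 2023 in replicate 5. Nlgn2, the neuroligin of inhibitory synapses, was lowest with 135 normalized counts in replicate 1, 565 in replicate 3, 470.4 in replicate 4 and 726 in replicate 5. Active zone genes, which dock vesicles at the release site, had a level of 8.90 ± 0.26, close to the scaffold list and below vesicle genes. Ppfia3 was highest at 2673 ± 1213 per kb, followed by Bsn at 1853 ± 855 and Unc13a at 1535 ± 699.9, and Pclo was lowest at 225 ± 78.0. These 3 highest genes each had their highest value in replicate 5 and their lowest in replicate 1. Pclo was instead lowest in replicate 3, and the order was not counted over the whole list. The order was chosen after the values were seen and found in 1430 of 13402 detected protein-coding genes (10.7%). Members of the active zone list had a median transcript of 8563 bases. As deposited the list deviated by -0.47 in replicate 1, -0.30 in replicate 3, 0.30 in replicate 4 and 0.47 in replicate 5. Relative to like-length genes it deviated by -0.12 in replicate 1, -0.24 in replicate 3, 0.05 in replicate 4 and 0.16 in replicate 5.

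Among glutamate receptors, the list level of AMPA receptor subunits exceeded that of NMDA receptor subunits, though their summed counts did not in each library. The 4 AMPA subunits had a level of 11.30 ± 0.41, the 6 measured NMDA subunits 9.65 ± 0.65, and the difference was 2.67 in replicate 1, 1.48 in replicate 3, 1.26 in replicate 4 and 1.19 in replicate 5, a mean of 1.65 ± 0.69 or 3.14-fold. It was largest in replicate 1, and without that library the mean was 1.31. The AMPA list summed to 82423 normalized counts in replicate 1, 115708 in replicate 3, 80166 in replicate 4 and 54653 in replicate 5. The NMDA list summed to 49316 normalized counts in replicate 1, 93411 in replicate 3, 75805 in replicate 4 and 58355 in replicate 5. In replicate 5 the NMDA sum was the higher. By mean per kb the NMDA subunit Grin1, at 9353, was above each AMPA subunit. Gria1 had 28377 normalized counts in replicate 1, 52499.6 in replicate 3, 35231 in replicate 4 and 21996 in replicate 5 and stood at 6225 ± 2370.1 normalized counts per kb. Gria2, the subunit that keeps calcium out, and Gria3 stood at 2777 ± 611 and 2431 ± 798, 0.23 ± 0.20 apart (log2), and Gria4 was lowest at 1334 ± 499.8. Each of the 4 was highest in replicate 3 and lowest in replicate 5, an order chosen after the values were seen and found in 15.1% of detected protein-coding genes.

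Grin1, the subunit that every NMDA receptor needs, had 29651 normalized counts in replicate 1, 59573 in replicate 3, 44191 in replicate 4 and 26555 in replicate 5 and stood at 9353 ± 3543 normalized counts per kb. It was followed by Grin2c at 1825 ± 464 and Grin3a, a marker of SST cells, at 1163 ± 482, and Grin2a was lowest at 154 ± 63.1. Grin2c and Grin3a were 0.71 ± 0.64 apart (log2) and in 3 of 4 libraries in this order. Auxiliary proteins of AMPA receptors had a list level of 9.32 ± 0.29, with Cnih2 at 13999 ± 4635, Nsf at 12994 ± 1930.1, Cacng3 at 3652 ± 1489 and, lowest, Cacng7 at 65.3 ± 31.5 per kb. Cacng2 (stargazin) had 6687 normalized counts in replicate 1, 5231 in replicate 3, 2517 in replicate 4 and 2532 in replicate 5.

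Kainate receptor subunits had a level of 8.46 ± 0.39 and metabotropic glutamate receptors 9.13 ± 0.25. Grik5 led the first at 2599 ± 791 normalized counts per kb, with Grik1 at 1065 ± 364, Grik2 at 359.6 ± 96.5 and Grik3 lowest at 46.9 ± 31.3. Grm3, which in cortex is also a gene of astrocytes, led the second at 2335 ± 137, with Grm2 at 1123 ± 127 and Grm8 lowest at 169 ± 66.9. Grm3 varied little (SD of log2 0.08).

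GABA-A receptor subunits had a level of 9.58 ± 0.37 with 12 of 15 detected. Gabrd, of extrasynaptic receptors, was highest at 11784 ± 5726 normalized counts per kb with 39316 normalized counts in replicate 1, 48997 in replicate 3, 25672 in replicate 4 and 13607 in replicate 5. Gabrg1 was the lowest detected at 199 ± 88.5. Gabra6, a subunit of cerebellar granule cells, was at 0 in the 4 libraries, and Gabre and Gabrq, picked after their values were seen, were under 10 normalized counts in at least 1. Of the 12 detected subunits, 7 were highest in replicate 3 and lowest in replicate 5, against 15.1% of detected protein-coding genes.

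**Figure D3:**
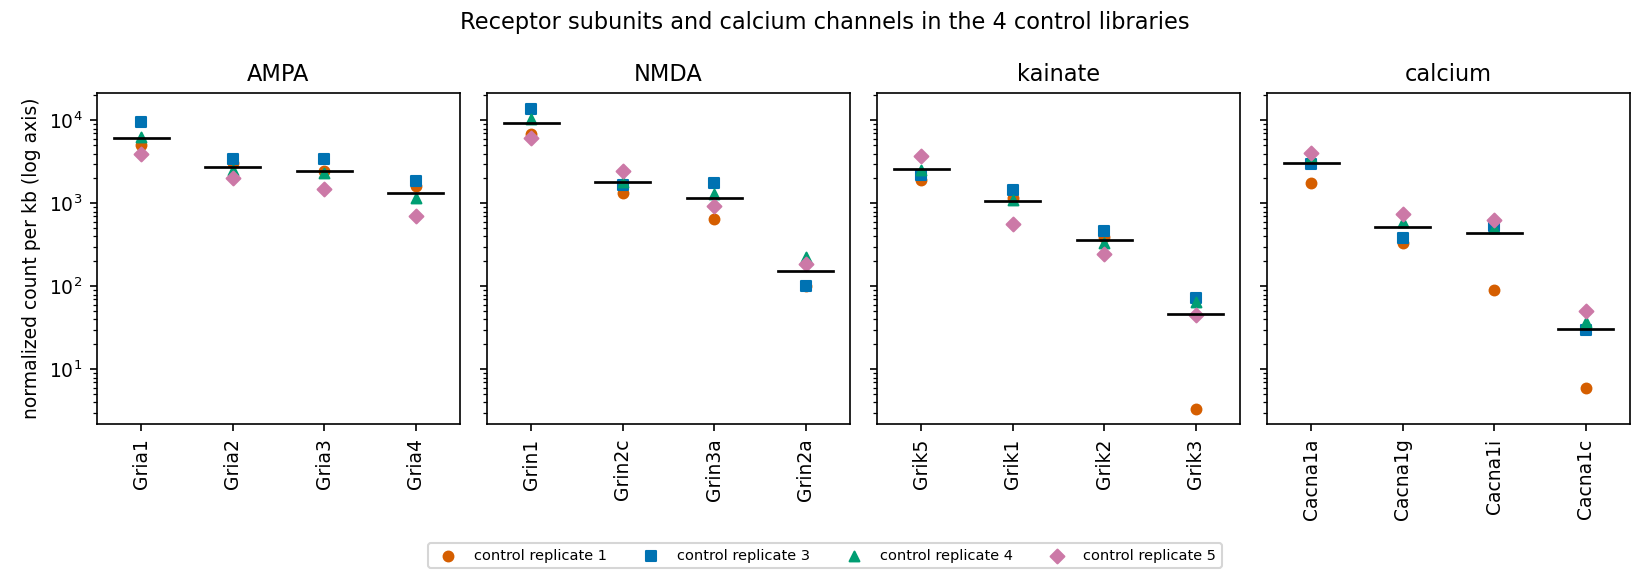
Normalized counts per kb (y axis, log) of the AMPA, NMDA and kainate receptor subunits and calcium channel genes named in the text, 1 point per control library and a black bar at the mean, ordered by mean within each family. Gria1, Grin1, Grik5 and Cacna1a lead their families, and the libraries of many neighbours overlap.

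Synaptic adhesion genes had a level of 10.97 ± 0.38, with 27 of 27 detected and 22 above the median of detected protein-coding genes. Clstn1, a calsyntenin, was highest at 46469 ± 15795 normalized counts per kb, then Ptprs, a receptor phosphatase, at 17072 ± 6729 and Cntn1 (contactin) at 13340.4 ± 5977. Ptprs was low in replicate 1 alone, with 47913 normalized counts in replicate 1, 140654 in replicate 3, 142349 in replicate 4 and 137198 in replicate 5.

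Of the adhesion and receptor genes that the study followed up, Nptn (neuroplastin) had 71147 normalized counts in replicate 1, 69088 in replicate 3, 34222 in replicate 4 and 20694 in replicate 5. Nlgn3 (neuroligin 3) had 6128 normalized counts in replicate 1, 24939 in replicate 3, 16228 in replicate 4 and 12729 in replicate 5. Nptn was highest in replicate 1 and Nlgn3 lowest there. Cadm1, an immunoglobulin-type adhesion protein, had 24398 normalized counts in replicate 1, 27407 in replicate 3, 13850.2 in replicate 4 and 10476 in replicate 5. Clstn2, a calsyntenin, had 8394 normalized counts in replicate 1, 15764 in replicate 3, 13243 in replicate 4 and 6854 in replicate 5. Both were highest in replicate 3 and lowest in replicate 5. Ntrk3, the neurotrophin-3 receptor, had 3899 normalized counts in replicate 1, 4509 in replicate 3, 2448 in replicate 4 and 2801 in replicate 5. Gria4 had 8789 normalized counts in replicate 1, 10021 in replicate 3, 6332 in replicate 4 and 3889.7 in replicate 5. Per kb these stood at 10768 for Nptn, 3993 for Cadm1, 2535 for Clstn2, 1757 for Nlgn3, 1334 for Gria4, 769.8 for Cacng2 and 173 for Ntrk3, whose longest transcript has 19703 bases.

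Potassium channels had a level of 8.90 ± 0.18, sodium channels 8.34 ± 0.59 and calcium channel alpha1 subunits 7.19 ± 0.56, and each of their 31, 9 and 8 members was detected. The potassium list minus the sodium list was 1.34 in replicate 1, -0.20 in replicate 3, 0.46 in replicate 4 and 0.62 in replicate 5, a mean of 0.55 ± 0.63, within the spread, and 0.29 without replicate 1. As a mean over members instead of a median the difference was -0.20. Kcna1, a delayed rectifier of axons, led at 5236 ± 1396 normalized counts per kb with Kcna6 at 3671 ± 1588 and Kcna3 at 2645 ± 1099, and Kcnd3 was lowest at 37.8 ± 19.4.

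Among the sodium channels Scn1a, the main alpha subunit of fast-spiking interneurons, stood at 4435 ± 1622 normalized counts per kb and Scn2a at 3720.4 ± 585. Scn1a had 27375 normalized counts in replicate 1, 56692 in replicate 3, 36314 in replicate 4 and 28385 in replicate 5, and Scn1a and Scn2a were 0.20 ± 0.30 apart (log2). Scn9a was lowest at 16.3 ± 6.98. Of calcium channels Cacna1a, the P/Q-type channel of fast-spiking terminals, was far ahead at 3112 ± 1005 per kb, followed by the T-type genes Cacna1g at 514 ± 189 and Cacna1i at 441 ± 240.4, with Cacna1c lowest at 30.8 ± 18.7. Cacna1a exceeded Cacna1g by 2.60 ± 0.25 (log2), and Cacna1g and Cacna1i did not differ beyond their spread. HCN channels, which carry the hyperpolarization-activated current, had a level of 9.63 ± 0.63, with Hcn2 highest at 3601 ± 923 and Hcn4 lowest at 53.8 ± 21.4.

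On average, transcripts of the ribosome itself lay close to the median of detected protein-coding genes, but not in replicates 1 and 3. The cytosolic list stood at 9.68 in replicate 1, 9.72 in replicate 3, 8.21 in replicate 4 and 8.57 in replicate 5. All detected protein-coding genes stood at 8.53 in replicate 1, 8.57 in replicate 3, 8.51 in replicate 4 and 8.47 in replicate 5. Cytosolic ribosomal protein genes had a level of 9.04 ± 0.77 with 74 of 75 detected, mitochondrial ribosomal protein genes 8.95 ± 0.51 with 75 of 75, and the difference was 0.25 in replicate 1, 0.36 in replicate 3, -0.32 in replicate 4 and 0.07 in replicate 5, a mean of 0.09 ± 0.30, within the spread. Without division by length the difference was -0.54. Rpl4 led the cytosolic list at 8548 ± 2485 normalized counts per kb, with Rplp0 at 6800.3 ± 2325, and Rps12 was the lowest detected at 23.1 ± 12.7. Cytosolic ribosomal protein genes have many near-identical pseudogene copies in the genome, and the part of reads lost to them was not tested. In the mitochondrial list Mrpl28 stood at 2702 ± 676, Mrpl20 at 2245 ± 987, Mrpl41 at 2097 ± 805 and Mrps25, the lowest, at 41.2 ± 24.6.

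The cytosolic list summed to 168479 normalized counts in replicate 1, 145864 in replicate 3, 65825 in replicate 4 and 77922 in replicate 5, and 66 of its 74 detected genes differed by at least 2-fold between libraries (89.2%, against 52.3% of detected protein-coding genes). Its deviation from the 4-library mean was 0.75 in replicate 1, 0.60 in replicate 3, -0.81 in replicate 4 and -0.55 in replicate 5 (median log2), and relative to genes of like length 0.24 in replicate 1, 0.21 in replicate 3, -0.39 in replicate 4 and -0.10 in replicate 5. Replicates 1 and 3 were high and 4 and 5 low on both scales, less so on the second. Translation factors had a level of 9.81 ± 0.20. The elongation factors Eef1a1 and Eef2 stood at 29997 ± 7573 and 24098 ± 1770.4 normalized counts per kb and Eif5a at 12118 ± 3399.9, and the lowest detected was the kinase gene Eif2ak2 at 71.4 ± 30.6. Eef2 was steady, with 73939 normalized counts in replicate 1, 81595 in replicate 3, 68273 in replicate 4 and 73942 in replicate 5.

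Nuclear genes of oxidative phosphorylation (OXPHOS) were among the highest lists, at 11.62 ± 0.92 with 81 of 82 members with a length detected. They exceeded mitochondrial ribosomal protein genes by 2.96 in replicate 1, 3.09 in replicate 3, 2.41 in replicate 4 and 2.22 in replicate 5, a mean of 2.67 ± 0.42 or 6.36-fold, in 4 of 4 libraries. Without division by length the difference was 1.71. Atp5b, of the ATP synthase, led at 81767 ± 15102 normalized counts per kb, then the cytochrome oxidase genes Cox4i1 at 33367 ± 19639 and Cox8a at 31306 ± 21462, and Atp5l was the lowest detected at 92.4 ± 26.9. Cox8a had 31000.2 normalized counts in replicate 1, 23075 in replicate 3, 6726 in replicate 4 and 8071 in replicate 5, high in replicates 1 and 3. The list deviated from the 4-library mean by 0.76 in replicate 1, 0.79 in replicate 3, -0.69 in replicate 4 and -0.80 in replicate 5 (median log2) as deposited and by 0.13 in replicate 1, 0.36 in replicate 3, -0.20 in replicate 4 and -0.35 in replicate 5 relative to genes of like length.

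Regions on the mitochondrial chromosome took 5.96% in replicate 1, 4.37% in replicate 3, 2.75% in replicate 4 and 6.21% in replicate 5 of normalized counts, a mean of 4.82% ± 1.60 (SD, n = 4), with replicate 4 lowest. This order differed from that of the nuclear OXPHOS list, in which replicate 5 was lowest. The highest of the 13 regions, positions 1094 to 3841, overlaps mt-Rnr2, a ribosomal RNA gene, and mt-Nd1, and had a mean of 1529769 ± 449122 normalized counts. The region at 5325 to 6941 overlaps mt-Co1 and had 938002 ± 351594.

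Spread between the libraries is given beside counting error, the least that separate samples can show. Among 29216 genes with a mean of at least 10 reads, 28470 (97.4%) varied more than counting allows (chi-square on recovered reads, Benjamini-Hochberg adjusted p under 0.05), a test that treats reads as independent and allows no variation between animals, so a high share is expected at this depth. The SD of log2(normalized count + 1) had a median of 0.49 over the 18977 genes with a mean of at least 100, with quartiles of 0.32 and 0.73, and without replicate 1 the median was 0.40. The median coefficient of variation was 82.2% for genes with a mean of 10 to 100 normalized counts, where counting gives 17.7%, and 38.2% from 100 to 1000, where it gives 6.26%. From 1000 to 10000 it was 27.2% against 2.17%, and above 10000 it was 30.3% against 0.806%.

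Of the 10 genes with the largest spread among those with a mean of at least 1000, 8 were lowest in replicate 1, against 2402 of the 7672 genes of this class (31.3%). Col24a1, a fibrillar collagen, had 218 normalized counts in replicate 1, 112 in replicate 3, 2232 in replicate 4 and 2626 in replicate 5, an SD of log2 of 2.31 against a median of 0.41 in this class. Shroom4, an actin regulator, had 120.0 normalized counts in replicate 1, 1830.2 in replicate 3, 2101 in replicate 4 and 1630.1 in replicate 5. Hspg2, the basement membrane proteoglycan perlecan, had 1117 normalized counts in replicate 1, 15830.2 in replicate 3, 8846 in replicate 4 and 10149 in replicate 5. Of the other 7, Med13l, Edem3, Arhgap35, Rap1gap2, Fndc3b and Ptger1 were each lowest in replicate 1, and Cort was lowest in replicate 5. Col24a1 was lowest in replicate 3. Col24a1, Arhgap35 and Cort had a mean under 1000 when 1 of their high libraries was left out, so their place in this class rests on those libraries. The 10 with the smallest spread were Sugp1, Zfp444, Twf2, Snx25, Get4, Ubtd2, Btg1, Vps35, Rhoq and Nudt4, with an SD of log2 of 0.02 to 0.04. Vps35, of the retromer complex that sorts membrane proteins, had 15828 normalized counts in replicate 1, 15859 in replicate 3, 15073 in replicate 4 and 15636 in replicate 5.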

How the data were processed

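RNA bound to HA-tagged ribosomes from cortical synaptosomes was sequenced by the authors. Their processing notes name STAR 2.4.0, FastQC, Picard, SAMtools and DESeq2. The deposited table gives a signal, the count of reads on constitutive regions from Fast DB divided by a DESeq2 size factor. Dividing each column by the smallest step between its values returned whole reads for 100% of values (tolerance 0.01), with size factors of 0.734, 0.974, 0.999 and 0.809 for replicates 1, 3, 4 and 5. The 4 mutant columns were not used here. No pair of the 4 libraries held the same reads up to counting error: chi-square per degree of freedom between pairs was 115 to 401.

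Of 56576 regions, 25158 carried a symbol and 23558 matched GENCODE M21 by symbol and overlapping position (mm10), whose longest transcript gave the length, since the length of the constitutive regions is not in the table. 346 regions with a joined symbol had no length. Detection needed 10 normalized counts in each library. A pseudocount of 0.1 was added per kb and 1 to counts. Differences between lists were taken within each library and averaged. No test between groups was run. Software was Python 3.11.15, numpy 2.4.6, pandas 2.3.3, scipy 1.17.1, matplotlib 3.10.9, R 4.3.3 and edgeR 4.0.16, and the calculations were tested on simulated data.

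Named genes were the 5 markers and Rpl22, the 20 highest by mean, the 3 highest and the lowest detected member of each of 37 lists by level per kb, the 10 genes of largest and of smallest SD with a mean of at least 1000, and 7 genes the study followed up. Some genes under this rule are not reported here. Others were chosen after their values were seen: Abat, Crh, Gabra6, Gabre, Gabrq, Nkx2-1, Penk, Scg2, Sncg, Vgf and Xist. The lists and members were chosen with earlier results of these data known. Some genes stand in more than 1 list, among them Slc17a7, Sst, Grin3a and Nlgn2. Alternatives were another pseudocount, filters on low counts, the mean over members, no length correction, TMM scaling, scaling to total reads, each library left out, and, chosen after the data were seen, centring of length bins and, for single genes, scaling to total reads and leaving out each library.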

Additional observations from a re-analysis of the deposited data

Results flagged for a closer look

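The values examined were the list levels and the named genes with 1 value in each of the 4 libraries. A value was picked out where 1 library lay far from the other 3 (Dixon's test at its 95% limit), and chance alone picks out about 5 in 100 such groups. Of 230 values, 5 were picked out. The level of the immediate early list was 9.40 in control replicate 1 and 8.86 to 8.95 in the others. Ncan had 39438 normalized counts in control replicate 3 and 26542 to 28454 in the others. Nkx2-1 had 6.01 normalized counts in control replicate 4 and was at 0 in the others. Ptprs had 47913 normalized counts in control replicate 1 and 137198 to 142349 in the others. Snx25 had 11234 normalized counts in control replicate 3 and 10773 to 10846 in the others.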

How the results depend on the processing

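No paired analysis was possible because the 4 control libraries form 1 group with no matched partner. Without division by length the log2 differences became 3.87 for GABA handling minus excitatory, 2.01 for GABA handling minus microglia, 1.71 for nuclear OXPHOS minus mitochondrial ribosomal proteins, 2.11 for vesicle minus scaffold and -0.54, with a changed sign, for cytosolic minus mitochondrial ribosomal proteins. As a mean over members they became 1.48 for microglia, 2.20 for nuclear OXPHOS and -0.20, with a changed sign, for potassium minus sodium channels. The median spread was 0.76 with no filter. The cause was not tested. The other 114 values of these results moved by less than the spread between libraries or, for counts, by less than 1.5 times, as did 879 values of single genes, while 16 values of single genes moved by more, each when scaled to total reads, which puts the counts of all genes on another overall scale and was chosen after the data were seen.

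Leaving out each library in turn gave 2.96 to 3.35 for GABA handling minus excitatory, -0.32 to 0.30 for MGE minus CGE, 0.42 to 1.00 for GABA handling minus astrocyte, -0.30 to 0.25 for GABA handling minus oligodendrocyte, 0.46 to 0.84 for GABA handling minus microglia, -0.42 to -0.06 for GABA handling minus endothelial and mural, 0.00 to 0.23 for cytosolic minus mitochondrial ribosomal proteins, 2.53 to 2.82 for nuclear OXPHOS minus mitochondrial ribosomal proteins, 2.69 to 3.20 for vesicle minus scaffold, 1.31 to 1.81 for AMPA minus NMDA, 0.29 to 0.81 for potassium minus sodium, 22760 to 24565 for detected regions (22369 with all 4), 4.36% to 5.51% for the mitochondrial share and 0.40 to 0.51 for the median spread. Near-zero differences changed sign in 4 of 9 alternatives for MGE minus CGE (range -0.66 to 0.46), 4 of 9 for oligodendrocytes (-0.30 to 0.71) and 2 of 9 for endothelial and mural cells (-0.42 to 0.10), so no order is given for these pairs. Leaving out 1 library lowered the mean of 14 named genes by over 1.5 times: Gabre, Pantr1, Vcan without replicate 1; Cort, Dlx6, Gabrq, Npy, Pvalb, Sncg, Sst, Tac1 without replicate 3; Nkx2-1, Uty without replicate 4; Col24a1 without replicate 5. Centring the length bins, chosen after the data were seen, gave 3.16 for GABA handling minus excitatory, 2.72 for nuclear OXPHOS minus mitochondrial ribosomal proteins and 2.78 for vesicle minus scaffold. The biological coefficient of variation from edgeR was 42.9%, and 37.1% without replicate 1. Depth limits the genes at 10 to 100 normalized counts most, where counting error alone is 17.7%.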

Other observations

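Immediate early genes, which neurons switch on with activity, had a list level of 9.03 ± 0.25 (log2 per kb, SD, n = 4) with 17 of 18 detected. Jun stood at 3513 ± 438 normalized counts per kb, Arc at 3215 ± 1485, Junb at 2155 ± 417 and Nr4a3, the lowest detected, at 51.2 ± 13.9. Arc had 14474 normalized counts in replicate 1, 5807 in replicate 3, 6055 in replicate 4 and 12953 in replicate 5, so replicates 1 and 5 were both above replicates 3 and 4. Transcripts known to be placed in dendrites and axons had a level of 11.36 ± 0.55, led by Actb at 71399 ± 24286, with Eef1a1 next and Calm3 at 11616 ± 8817. Calm3 had 34253 normalized counts in replicate 1, 51671 in replicate 3, 10743 in replicate 4 and 9732 in replicate 5.

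Genes of the perineuronal net, the matrix that wraps PV cells, had a level of 7.93 ± 0.49, with Bcan at 4755 ± 840.2, Ncan at 4209 ± 856, Hapln4 at 1028 ± 491 and Vcan lowest at 12.2 ± 9.27 normalized counts per kb. The ErbB and TSC pathway genes had levels of 7.43 in replicate 1, 8.18 in replicate 3, 8.36 in replicate 4 and 8.05 in replicate 5. Akt1 led at 5882 ± 424 per kb, Tsc2 followed at 3364 ± 1023 and Rheb at 1622 ± 514, and Erbb3 was lowest at 32.0 ± 10.2. Akt1 was steady, with 15793 normalized counts in replicate 1, 14417 in replicate 3, 17208 in replicate 4 and 15869 in replicate 5.

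Long noncoding RNAs had a level of 8.18 ± 0.66, with Snhg11 at 3651 ± 1226, Meg3 at 1812 ± 372, Pantr1 at 1209 ± 863 and Mirg lowest at 41.4 ± 12.8 normalized counts per kb. The 4 genes of the Y chromosome summed to 2765 normalized counts in replicate 1, 4603 in replicate 3, 4839 in replicate 4 and 4459.9 in replicate 5, and Xist, of the inactive X chromosome, had 922 normalized counts in replicate 1, 1492 in replicate 3, 3295 in replicate 4 and 2074 in replicate 5. Ddx3y stood at 591 ± 145 per kb, Eif2s3y at 212 ± 33.5, Kdm5d at 67.7 ± 34.8 and Uty at 47.0 ± 35.4. Xist and the Y-linked genes were above 0 in each of the 4 libraries.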
